A study of Mus musculus with 12 samples.

Results

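The genes described here are the myeloid granule enzymes Mpo, Elane, Prtn3 and Ctsg with their companions Ms4a3, Srgn, Calr and Igfbp4, a group named for the primary granule contents of myeloid progenitors. They were chosen by gene symbol, and all 8 were found among the 24310 features listed in each library. RNA came from CMM cells, a mouse acute myeloid leukaemia that carries inv(16) and GFP, growing in the spleens of C57BL/6 hosts. Treatment by intravenous injection started at roughly 1% GFP+ cells in blood and was repeated on alternate days, 3 injections in all. Spleens were collected 1 day after the last injection. The 12 libraries fall into 4 labelled CpG-STAT3dODN, 4 labelled CpG-scrODN and 4 labelled PBS. CpG-STAT3dODN joins a TLR9-stimulating CpG oligonucleotide to a decoy sequence for the transcription factor STAT3, CpG-scrODN carries a scrambled sequence in place of the decoy, and PBS is the vehicle. All 3 groups thus hold the same leukaemia in hosts with their own blood cells, and c-Kit+ cells were enriched from the spleen before RNA extraction. The series design also mentions sorting on GFP, which the protocols do not list.

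The header inside each of the 12 files names another group than its label. Libraries labelled CpG-STAT3dODN are headed SCR, those labelled CpG-scrODN are headed PBS, and those labelled PBS are headed DEC. Groups are therefore called by their labels throughout, and no difference is assigned to a treatment. Nothing states that 1 library is 1 mouse, and the spread behind each p-value may therefore be technical.

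Primary (azurophil) granules are filled at the promyelocyte stage, when granulocyte and monocyte progenitors transcribe a small set of enzyme genes at high rate and largely stop as the cells mature. Mpo encodes myeloperoxidase, a haem enzyme that makes hypochlorous acid. Elane, Prtn3 and Ctsg encode neutrophil elastase, proteinase 3 and cathepsin G, serine proteases that are activated by removal of a short peptide and held in the granule on proteoglycan. Srgn encodes that proteoglycan core, serglycin, and Calr encodes calreticulin, a chaperone of the endoplasmic reticulum that handles newly made myeloperoxidase. Ms4a3 encodes a membrane protein of granulocyte and monocyte progenitors, and Igfbp4 encodes a secreted protein that binds insulin-like growth factors. In AML, myeloperoxidase is used as a marker of myeloid commitment.

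On GRCm38 (mm10), Elane spans 79886312 to 79888216 and Prtn3 79879667 to 79883174 of chromosome 10, only 3138 bases apart. Mpo lies at 87793784 to 87804412 of chromosome 11 and Ctsg at 56099885 to 56102574 of chromosome 14. Because these 4 genes moved together across libraries on 3 chromosomes, the 250 bases upstream of each RefSeq start are shown, 5′ to 3′ on the gene's own strand. Capitals mark AGGAAGT, a purine-rich ETS core of the kind that PU.1 binds. The windows are chr11:87793534-87793783 on the plus strand for Mpo, chr10:79886062-79886311 on the plus strand for Elane, chr10:79879417-79879666 on the plus strand for Prtn3 and chr14:56102575-56102824 on the minus strand for Ctsg.
Mpo: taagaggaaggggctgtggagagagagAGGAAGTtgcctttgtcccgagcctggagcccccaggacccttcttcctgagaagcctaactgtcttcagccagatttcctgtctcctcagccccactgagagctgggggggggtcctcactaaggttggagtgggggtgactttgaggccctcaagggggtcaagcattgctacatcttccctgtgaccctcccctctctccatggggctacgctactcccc
Elane: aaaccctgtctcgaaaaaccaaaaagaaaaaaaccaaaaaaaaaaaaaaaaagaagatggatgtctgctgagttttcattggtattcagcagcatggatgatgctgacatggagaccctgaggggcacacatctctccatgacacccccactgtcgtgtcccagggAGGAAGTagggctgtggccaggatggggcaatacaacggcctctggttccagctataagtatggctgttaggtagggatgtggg
Prtn3: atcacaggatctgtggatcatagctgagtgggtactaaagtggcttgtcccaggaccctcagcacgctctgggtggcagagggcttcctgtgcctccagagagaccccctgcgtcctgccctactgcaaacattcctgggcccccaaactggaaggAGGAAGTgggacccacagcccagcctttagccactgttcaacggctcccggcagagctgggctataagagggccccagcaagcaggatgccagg
Ctsg: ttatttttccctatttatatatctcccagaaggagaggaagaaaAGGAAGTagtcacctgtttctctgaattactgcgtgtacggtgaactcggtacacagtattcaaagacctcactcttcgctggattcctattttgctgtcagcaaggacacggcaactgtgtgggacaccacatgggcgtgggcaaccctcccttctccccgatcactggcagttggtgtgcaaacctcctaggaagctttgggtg

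Each of these 4 windows held 1 AGGAAGT on either strand, 223 to 217 bases before the start in Mpo, 84 to 78 in Elane, 94 to 88 in Prtn3 and 206 to 200 in Ctsg. The windows of Ms4a3, Srgn, Calr and Igfbp4 held none. Of all 32851 RefSeq windows of this length, 7.7% held it. The neighbours Elane and Prtn3 also shared the order of their other matches. The MYB letters CAACNG matched as CAACGG 51 to 46 bases before the start in Elane and 56 to 51 in Prtn3, and TATAA stood at 31 to 27 in Elane and 32 to 28 in Prtn3. CAACNG also matched in Ctsg, Srgn and Calr, and TATAA in Ctsg, Srgn and Igfbp4. CAACNG is found in 29.3% of all windows and TATAA in 22.8%. The C/EBP letters TTNNGNAA, present in 36.8% of windows, matched in no enzyme window and 1 time in that of Ms4a3. Srgn has 2 windows, and its window 2 held 5 such matches. The RUNX letters TGTGGT, present in 14% of windows, matched in Ctsg alone among the enzymes, as did the STAT letters TTCNNNGAA, present in 7.0%, as TTCTCTGAA 189 to 181 bases before its start. All motifs were read on both strands with letters chosen after the sequences were seen, and a match is a description of letters, not of binding.

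Estimated depth was 31420000 to 36170000 reads per library. Values are RPKM, in which read numbers are divided by transcript length and by the library's mapped reads, and differences are between group means of log2(RPKM + 1). A gene was called when the adjusted p of limma, a linear model fitted here to 10886 genes, was under 0.05. Kit, the gene of the surface marker used for enrichment, was measured at 10.5 to 51.1 RPKM, so the marker of the selection was detected in every library. Mean Kit was 35.5 RPKM in libraries labelled CpG-STAT3dODN, 32.2 RPKM in those labelled CpG-scrODN and 21.0 RPKM in those labelled PBS. The differences from PBS were 0.84 and 0.75 and were not called (limma adjusted p = 0.415 and 0.319, unadjusted p = 0.0299 and 0.0498). Whether enrichment differed between groups was not tested. Replicate 4 labelled CpG-STAT3dODN and replicate 4 labelled PBS stood apart, with Fos, an immediate-early gene, at 5.91 and 12.9 RPKM against 486 to 1156 RPKM in the other 10 libraries. Other blood cells were detected. The summed level of 17 B-cell markers was 32.6 to 137 RPKM in libraries labelled CpG-STAT3dODN, 13.4 to 35.8 RPKM in those labelled CpG-scrODN and 231 to 849 RPKM in those labelled PBS, and no marker was at 0 throughout. Of 16 tested B-cell markers, limma called 14 lower in CpG-STAT3dODN than in PBS and 16 lower in CpG-scrODN than in PBS. Of all tested genes, 1.83% and 4.04% were called lower in these comparisons. The summed level of 12 T and NK cell markers was 3.92 to 7.76 RPKM, 3.40 to 7.17 RPKM and 19.3 to 62.9 RPKM in libraries labelled CpG-STAT3dODN, CpG-scrODN and PBS, with 3 of 4 tested called lower for each CpG label. That of 8 plasma cell markers was 72.2 to 90.9 RPKM, 42.1 to 66.2 RPKM and 105 to 163 RPKM in the same order, with 2 and 3 of 6 tested called lower. Some called markers met the filter of 1 RPKM in at least 4 of 12 libraries only with those labelled PBS, so they were tested because of that group. Among them were Fcrla of B cells, Cd2 and Cd3g of T cells and Derl3 of plasma cells. No T, NK or plasma cell marker was at 0 throughout. Their part in the results was not tested. In bulk RNA, fewer cells of a type and less RNA per cell cannot be told apart.

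The 4 granule enzymes and Ms4a3 were lower in libraries labelled CpG-scrODN than in those labelled PBS, at 0.227 to 0.328 of the mean RPKM, while Srgn, Calr and Igfbp4 did not pass the test. For these 5 genes, the mean of the libraries labelled CpG-STAT3dODN lay between those of the other groups. No difference from either passed the adjusted threshold. Single libraries overlapped with those labelled CpG-scrODN for all 5 genes, and with those labelled PBS for Elane and Ms4a3 only. Mpo measured 38.4, 29.6, 84.0 and 37.9 RPKM in replicates 1 to 4 labelled CpG-STAT3dODN, 30.0, 17.2, 17.4 and 30.0 RPKM in those labelled CpG-scrODN, and 93.8, 119, 95.8 and 91.6 RPKM in those labelled PBS. Every library labelled CpG-scrODN was below every library labelled PBS, and replicate 3 labelled CpG-STAT3dODN came close to the lowest of the PBS group.

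**Figure D1:**
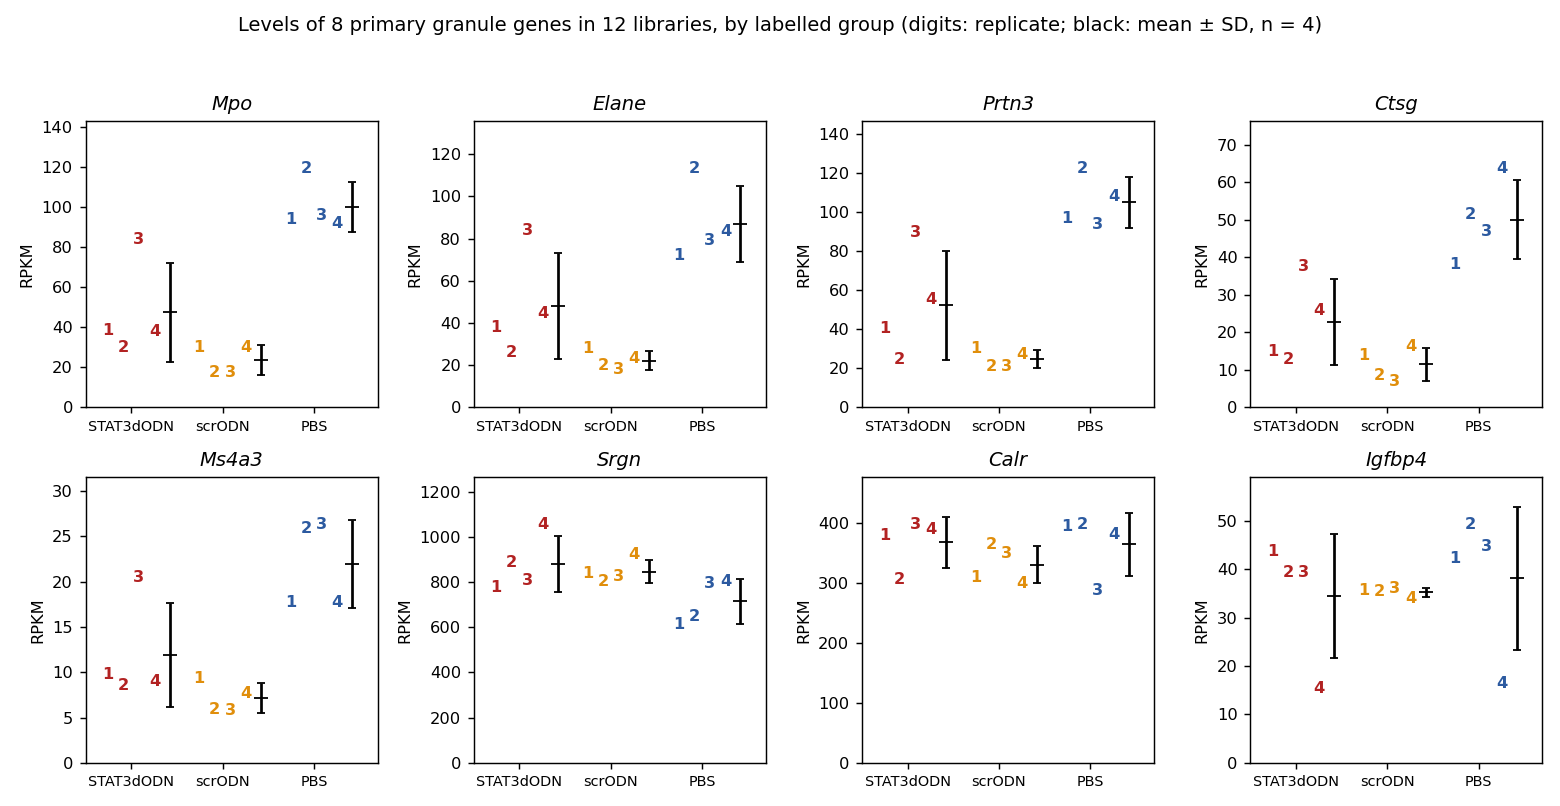
RPKM of the 8 genes in each of the 12 libraries by labelled group, with digits for replicates and black marks for the mean and SD of 4 libraries. For Mpo, Elane, Prtn3, Ctsg and Ms4a3, every library labelled CpG-scrODN lies below every library labelled PBS, and replicate 3 is the highest of those labelled CpG-STAT3dODN.

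Elane measured 37.7, 25.9, 83.9 and 44.3 RPKM in libraries labelled CpG-STAT3dODN, 27.9, 19.8, 17.8 and 23.0 RPKM in those labelled CpG-scrODN, and 72.2, 113, 79.2 and 83.5 RPKM in those labelled PBS. Here replicate 3 labelled CpG-STAT3dODN lay inside the PBS range, so these groups overlapped. Prtn3 measured 40.1, 24.2, 89.6 and 55.0 RPKM in libraries labelled CpG-STAT3dODN, 29.9, 21.0, 20.9 and 27.2 RPKM in those labelled CpG-scrODN, and 96.7, 122, 93.8 and 108 RPKM in those labelled PBS. All 8 libraries of the CpG labels were below the PBS range, with replicate 3 labelled CpG-STAT3dODN nearest to it. Ctsg measured 14.9, 12.8, 37.5 and 25.8 RPKM in libraries labelled CpG-STAT3dODN, 13.8, 8.35, 6.99 and 16.3 RPKM in those labelled CpG-scrODN, and 38.0, 51.4, 46.9 and 63.5 RPKM in those labelled PBS. Ctsg had the lowest level of the 4 enzymes per length, and its highest library labelled CpG-STAT3dODN stood just under the lowest labelled PBS. Ms4a3 measured 9.77, 8.48, 20.5 and 8.98 RPKM in libraries labelled CpG-STAT3dODN, 9.36, 5.91, 5.81 and 7.66 RPKM in those labelled CpG-scrODN, and 17.7, 25.9, 26.3 and 17.7 RPKM in those labelled PBS. It followed the enzymes, with replicate 3 labelled CpG-STAT3dODN inside the PBS range.

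Between libraries labelled CpG-scrODN and PBS, 5 of the 8 genes were called lower and none higher, where 4.04% of all tested genes were called lower and 0.110% higher. The difference was -2.08 for Mpo (SE 0.29, 95% interval -2.71 to -1.44, limma adjusted p = 0.00139). It was -1.93 for Elane (limma adjusted p = 0.00217), -2.05 for Prtn3 (0.00196) and -2.09 for Ctsg (0.00326). Ms4a3 had the smallest of the 5, -1.48 (SE 0.26, 95% interval -2.04 to -0.92, limma adjusted p = 0.00573). On the RPKM scale, the mean labelled CpG-scrODN was 0.237 of the PBS mean for Mpo, 0.254 for Elane, 0.235 for Prtn3, 0.227 for Ctsg and 0.328 for Ms4a3. The same 5 genes had groups that did not overlap, where 10.0% of tested genes lay wholly lower. At an unadjusted p under 0.05, these 5 of the 8 passed, where 15.6% of tested genes did. The calls stood when any single library was left out and when both libraries of low Fos were left out.

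Between libraries labelled CpG-STAT3dODN and PBS, none of the 8 genes was called by limma, where 1.83% of tested genes were called lower and 0.0276% higher. At an unadjusted p under 0.05, 6 of the 8 passed, these 5 genes and Srgn, where 9.40% of tested genes did. The difference was -1.17 for Mpo (SE 0.29, 95% interval -1.80 to -0.53, limma adjusted p = 0.0806), -0.95 for Elane (0.177), -1.14 for Prtn3 (0.109), -1.20 for Ctsg (0.124) and -0.89 for Ms4a3 (0.149). Mpo, Prtn3 and Ctsg had groups that did not overlap, 3 of 8 genes, where 4.23% of tested genes lay wholly lower. A single library decided the outcome. Without replicate 3 labelled CpG-STAT3dODN, the differences were -1.48 for Mpo (limma adjusted p = 0.00693), -1.26 for Elane (0.0141), -1.45 for Prtn3 (0.0126), -1.47 for Ctsg (0.0412) and -1.16 for Ms4a3 (0.0114). All 5 were then called. The library left out was the highest of its group for all 5 genes, so its removal widened these differences by construction. With library quality weights in place of leaving it out, the 5 genes were called too. The weights raised the calls over all genes from 202 to 1248.

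Replicate 3 labelled CpG-STAT3dODN differed from its group in other transcripts too. It had the highest summed level of 20 secondary granule genes in that group, 5269.6 RPKM against 2280.2 to 2967 RPKM in the other 3 libraries, and of 12 erythroid markers, 4255 RPKM against 404 to 2482 RPKM. Its B-cell marker sum was 47.6 RPKM, within the range of its group. Among libraries labelled PBS, replicate 2 had the highest Mpo, Elane and Prtn3 and also the highest secondary granule sum, 6345 RPKM against 2038 to 5443 RPKM, while Ctsg was highest in replicate 4. B-cell markers were highest in replicate 4 labelled PBS, 849 RPKM, the library with the lowest Mpo, the highest Ctsg and the second highest Elane and Prtn3 of that group. The part of these transcripts in the enzyme levels was not tested.

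Between libraries labelled CpG-STAT3dODN and CpG-scrODN, limma called none of the 8 genes and none of the 10886 tested. At an unadjusted p under 0.05, 5 of the 8 genes and 295 genes in all passed, 2.71% of those tested. Mean Mpo was 47.4 ± 24.7 RPKM in libraries labelled CpG-STAT3dODN and 23.6 ± 7.32 RPKM in those labelled CpG-scrODN (SD, n = 4 each). The difference was 0.91 for Mpo (95% interval 0.27 to 1.54), 0.97 for Elane (0.34 to 1.60), 0.91 for Prtn3 (0.25 to 1.58), 0.89 for Ctsg (0.16 to 1.62) and 0.59 for Ms4a3 (0.03 to 1.15). All 5 had a limma adjusted p of 0.96 and groups that overlapped. Without replicate 3 labelled CpG-STAT3dODN, the difference was 0.60 for Mpo, 0.66 for Elane, 0.60 for Prtn3, 0.62 for Ctsg and 0.32 for Ms4a3. The intervals of all 5 lay above 0 with all libraries in, but with 10886 genes compared none passed the adjusted threshold. With library quality weights in the model, the same 5 genes were called, among 607 genes in all.

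**Figure D2:**
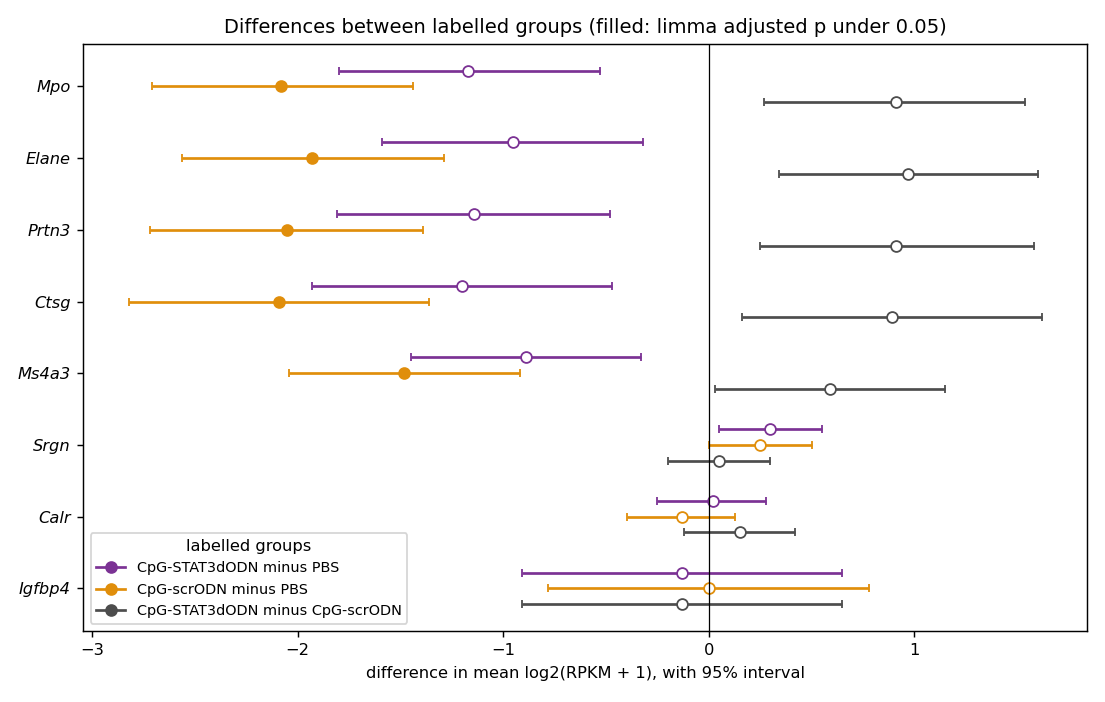
Difference in mean log2(RPKM + 1) between labelled groups for the 8 genes, with 95% intervals from limma; filled points have an adjusted p under 0.05. The 5 filled points are Mpo, Elane, Prtn3, Ctsg and Ms4a3 in CpG-scrODN minus PBS, from -2.09 to -1.48, while Calr and Igfbp4 lie near 0.

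The 4 enzymes moved together across the libraries. Over the 12 libraries, Pearson correlations of their log2(RPKM + 1) values were 0.960 to 0.990, and those with Ms4a3 were 0.923 to 0.976; the libraries share group differences and cell makeup, so these are descriptions without a test. Mpo, Elane and Prtn3 each exceeded Ctsg, and Ctsg exceeded Ms4a3, in 12 of 12 libraries. The order among the upper 3 was less fixed, with Prtn3 above Elane in 11 of 12 libraries, Mpo above Elane in 9 and Prtn3 above Mpo in 8. The log2 ratio within each of 6 enzyme pairs was compared between groups by two-sided exact permutation tests of 4 against 4 libraries, whose smallest p is 0.0286. None of the 18 tests passed, adjusted or not, and the lowest adjusted p was 0.857. A single ratio at the smallest p could not pass after adjustment over 18 tests, so the adjusted outcome cannot show equal proportions. The widest shift between groups was that of Elane over Ctsg, a mean log2 ratio of 1.04 in libraries labelled CpG-STAT3dODN and 0.79 in those labelled PBS (exact permutation p = 0.2, n = 4 each). Ratios also varied within groups, as with Mpo over Ctsg, at 0.52 to 1.28 in libraries labelled PBS.

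Srgn was the most abundant of the 8 genes in 12 of 12 libraries and Calr the second, and neither passed the test in any comparison as fitted without library weights. Srgn measured 777, 887, 806 and 1055 RPKM in libraries labelled CpG-STAT3dODN, 839, 803, 824 and 920.2 RPKM in those labelled CpG-scrODN, and 613, 649.5, 796 and 804 RPKM in those labelled PBS. The libraries of the CpG labels were mostly the higher ones, with overlap from PBS replicates 3 and 4. The difference from PBS was 0.30 for CpG-STAT3dODN (95% interval 0.05 to 0.55, limma adjusted p = 0.362) and 0.25 for CpG-scrODN (-0.001 to 0.50, limma adjusted p = 0.323). Between the CpG labels it was 0.05. With library quality weights, Srgn was called higher against PBS for both CpG labels. Srgn was correlated with the 4 enzymes at -0.544 to -0.366 over the 12 libraries, a weak relation given as a description.

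Calr measured 379, 306, 398 and 389 RPKM in libraries labelled CpG-STAT3dODN, 309.9, 365, 349.7 and 299.6 RPKM in those labelled CpG-scrODN, and 394, 398, 288 and 381 RPKM in those labelled PBS. The 3 ranges overlapped, and the lowest library, replicate 3, was labelled PBS. The difference from PBS was 0.02 for CpG-STAT3dODN (95% interval -0.25 to 0.28) and -0.13 for CpG-scrODN (-0.40 to 0.13, limma adjusted p = 0.629). The lower end of the second interval, -0.40, is far from the -2.71 to -1.44 of Mpo, the client of calreticulin. Igfbp4 measured 43.6, 39.3, 39.3 and 15.4 RPKM in libraries labelled CpG-STAT3dODN, 35.5, 35.4, 35.9 and 33.9 RPKM in those labelled CpG-scrODN, and 42.2, 49.2, 44.6 and 16.3 RPKM in those labelled PBS. The 2 low values belong to the replicates 4 in which Fos was low, and the libraries labelled CpG-scrODN varied least. The difference from PBS was -0.13 for CpG-STAT3dODN (95% interval -0.91 to 0.65) and 0.001 for CpG-scrODN (-0.78 to 0.78, limma adjusted p = 0.999). With both libraries of low Fos left out, a choice made after seeing the data, the difference of CpG-scrODN from PBS was -0.35 (limma adjusted p = 0.0116), so the outcome for Igfbp4 turned on those libraries.

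**Figure D3:**
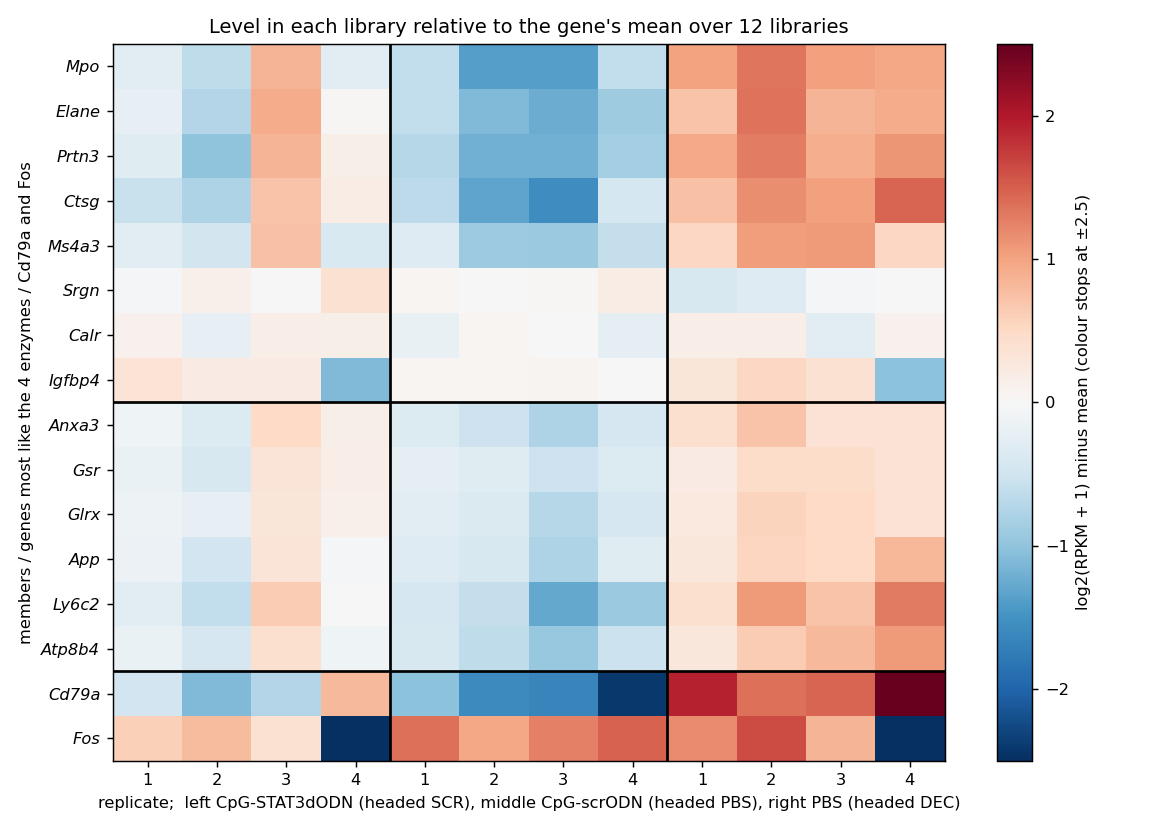
Level of the 8 genes, the genes most like the 4 enzymes, Cd79a and Fos in each library, as log2(RPKM + 1) minus the gene's mean over 12 libraries. The enzymes and Ms4a3 are low in all 4 libraries labelled CpG-scrODN and high in all 4 labelled PBS, while Igfbp4 and Fos are low in replicate 4 labelled CpG-STAT3dODN and replicate 4 labelled PBS.

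The genes most like the mean of the 4 enzymes over the 12 libraries were Anxa3 (Pearson r = 0.977), Gsr (0.967), Glrx (0.962), App (0.962), Ly6c2 (0.959) and Atp8b4 (0.957). Gsr encodes glutathione reductase and Glrx glutaredoxin, enzymes of thiol redox balance, and Ly6c2 encodes a surface antigen of monocytes and their progenitors. Ly6c2 averaged 59.2 ± 23.3 RPKM in libraries labelled CpG-STAT3dODN, 33.9 ± 8.61 RPKM in those labelled CpG-scrODN and 111 ± 30.3 RPKM in those labelled PBS (SD, n = 4 each), in the same order as the enzymes. The 8 genes themselves were left out of this search, and Mpo was closer to Ms4a3 (0.976) than any gene outside the 8. Of those outside, Clec12a, a myeloid lectin receptor, was the closest to Ms4a3 (0.970), Atxn1 to Srgn (0.979), and Dnajb11, another endoplasmic reticulum chaperone, to Calr (0.980). Zfp385a was the closest to Igfbp4 (0.984) and shared its low values, 8.99 RPKM in replicate 4 labelled CpG-STAT3dODN and 8.88 RPKM in replicate 4 labelled PBS against 19.7 to 25.8 RPKM elsewhere.

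Some other primary granule genes passed the test. Of 27 tested, limma called 1 lower for CpG-STAT3dODN against PBS and 3 lower for CpG-scrODN against PBS, with none higher. Of all tested genes, 1.83% and 4.04% were called lower in these comparisons. The median differences were -0.08 and -0.13, beside -0.01 and -0.05 over all tested genes. At an unadjusted p under 0.05, 6 and 12 of the 27 passed, where 9.40% and 15.6% of all tested genes did. Ctsh, a lysosomal cysteine protease, was the gene called in both. It averaged 7.76 ± 1.76 RPKM in libraries labelled CpG-STAT3dODN, 5.92 ± 1.57 RPKM in those labelled CpG-scrODN and 26.5 ± 7.71 RPKM in those labelled PBS (SD, n = 4 each). Ctsh differed from PBS by -1.64 (limma adjusted p = 0.00174) and -1.98 (0.000266) for these labels. Its highest library was replicate 4 labelled PBS, 37.9 RPKM, where B-cell markers were also highest, and their part in it was not tested. The other genes called in CpG-scrODN against PBS were Prss57, a granule serine protease, by -0.97 (limma adjusted p = 0.0412), and Psap, the saposin precursor, by -0.52 (0.0228).

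Calls among genes that make, activate or store the enzymes are set beside the shares over all tested genes. Of all tested genes, 1.83% were called lower for CpG-STAT3dODN against PBS and 4.04% for CpG-scrODN against PBS. At an unadjusted p under 0.05, 9.40% and 15.6% passed. Of 12 tested genes for activation and inhibition of the proteases, limma called none against PBS for either CpG label, with 1 at an unadjusted p under 0.05 for CpG-STAT3dODN and 4 for CpG-scrODN. Ctsc, the peptidase that activates the granule proteases, averaged 11.9 ± 1.52 RPKM in libraries labelled CpG-STAT3dODN, 10.6 ± 1.86 RPKM in those labelled CpG-scrODN and 14.8 ± 4.36 RPKM in those labelled PBS (SD, n = 4 each), and was not called (limma adjusted p = 0.845 and 0.27 against PBS). Serpinb1a, which encodes an inhibitor of neutrophil serine proteases, averaged 180.3 ± 102, 195 ± 137 and 111 ± 70.4 RPKM in libraries labelled CpG-STAT3dODN, CpG-scrODN and PBS, with wide spread and no call. Of 24 sorting and proteoglycan genes, only Chsy1, a chondroitin synthase, was called, by -0.39 in CpG-scrODN against PBS (limma adjusted p = 0.0123). None of 19 folding partners in the endoplasmic reticulum was called by limma against PBS, with 0 and 1 at an unadjusted p under 0.05 for CpG-STAT3dODN and CpG-scrODN. Of 14 haem synthesis genes, Alas1, the rate-limiting enzyme of haem synthesis outside red cells, was the only one called. It averaged 7.85 ± 1.50 RPKM in libraries labelled CpG-STAT3dODN, 6.10 ± 0.822 RPKM in those labelled CpG-scrODN and 10.6 ± 2.07 RPKM in those labelled PBS (SD, n = 4 each), and CpG-scrODN differed from PBS by -0.70 (limma adjusted p = 0.0215).

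Among 15 transcriptional regulators of granule genes, limma called 2 lower for CpG-STAT3dODN against PBS and 5 lower for CpG-scrODN against PBS. None was called higher, and the median differences were -0.39 and -0.65. Of all tested genes, 1.83% and 4.04% were called lower. Irf8, the factor that favours monocytes and dendritic cells over granulocytes and is also expressed in B cells, had the widest difference. It measured 5.93, 3.28, 5.43 and 6.09 RPKM in libraries labelled CpG-STAT3dODN, 3.47, 4.41, 3.15 and 2.33 RPKM in those labelled CpG-scrODN, and 22.8, 17.2, 18.5 and 42.4 RPKM in those labelled PBS, so that neither CpG label overlapped with PBS. The difference from PBS was -2.02 (limma adjusted p = 0.00191) and -2.53 (0.000265). Irf8 was highest in replicate 4 labelled PBS, together with B-cell markers, whose part was not tested. Cebpd, a C/EBP factor of myeloid cells, differed from PBS by -0.67 for CpG-STAT3dODN (limma adjusted p = 0.0354) and -1.07 for CpG-scrODN (0.00113). Cebpe, the C/EBP factor of the promyelocyte to myelocyte step, averaged 4.96 ± 2.05 RPKM in libraries labelled CpG-STAT3dODN, 2.06 ± 0.945 RPKM in those labelled CpG-scrODN and 6.78 ± 2.22 RPKM in those labelled PBS (SD, n = 4 each). Its difference from PBS passed for CpG-scrODN alone, -1.36 (limma adjusted p = 0.0189), against -0.39 (0.886) for CpG-STAT3dODN; between the CpG labels Cebpe differed by 0.97 (0.96), which did not pass.

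Gfi1, a repressor needed for neutrophil production and named here after its values were seen, averaged 1.13 ± 0.522 RPKM in libraries labelled CpG-STAT3dODN, 0.552 ± 0.263 RPKM in those labelled CpG-scrODN and 1.93 ± 0.480 RPKM in those labelled PBS (SD, n = 4 each). It was called in CpG-scrODN against PBS, by -0.91 (limma adjusted p = 0.015). Klf4 was called there too, by -0.96 (limma adjusted p = 0.0341). Gfi1 met the filter on low values only with the libraries labelled PBS, at 1.23 to 2.25 RPKM, so it was tested because of that group. Cebpa, Runx1 and Cbfb, also chosen after their values were seen, were not called, and their binding at the enzyme genes was not tested. Cebpa differed from PBS by -0.65 for CpG-STAT3dODN and -0.72 for CpG-scrODN (limma adjusted p = 0.175 and 0.0716), Runx1 by 0.30 and 0.20 (0.0855 and 0.231). Cbfb, the partner of Runx1 that inv(16) joins to a myosin gene, was at 39.7 ± 2.92 RPKM in libraries labelled CpG-STAT3dODN, 38.4 ± 1.79 RPKM in those labelled CpG-scrODN and 40.1 ± 7.09 RPKM in those labelled PBS (SD, n = 4 each).

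**Figure D4:**
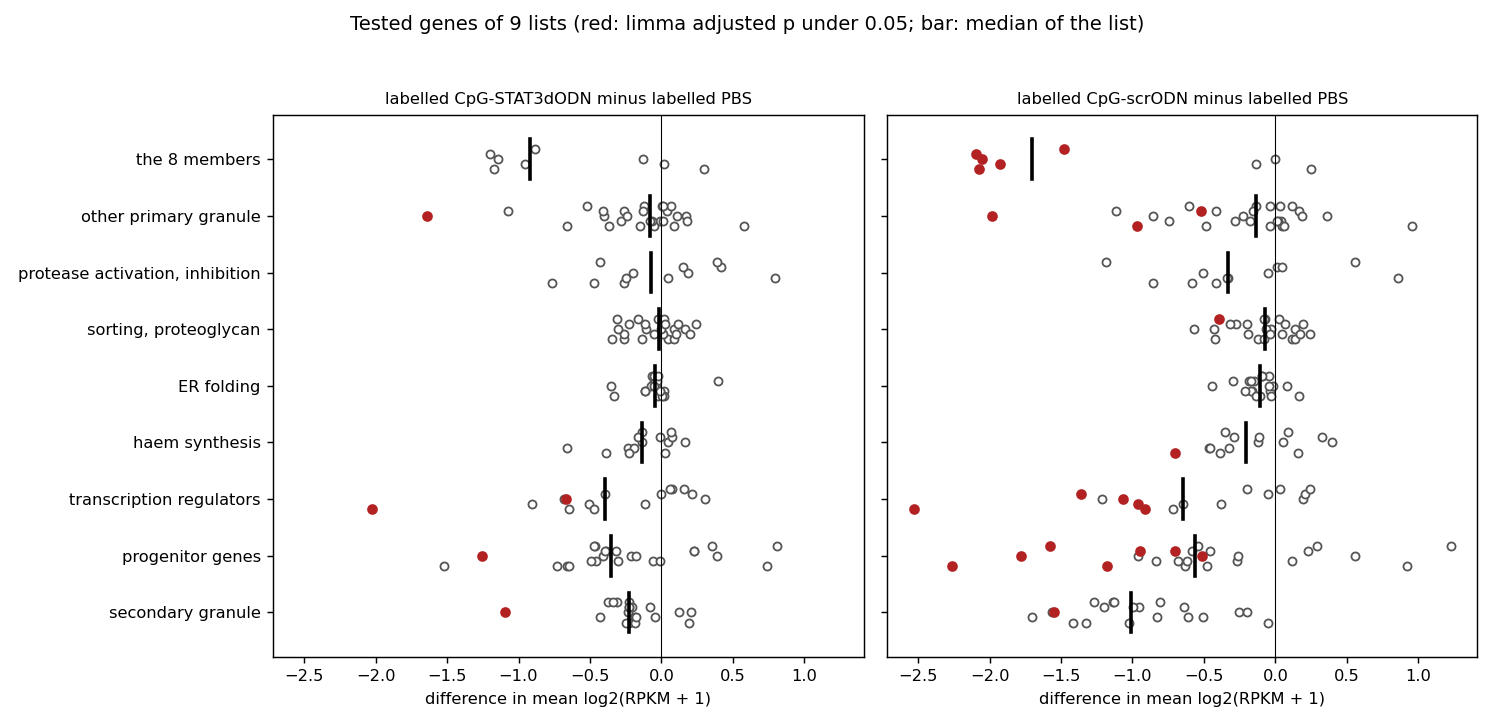
Difference in mean log2(RPKM + 1) for each tested gene of 9 lists, for each CpG label minus PBS, with a bar at the list's median and red for a limma adjusted p under 0.05. The other primary granule genes centre near 0 (medians -0.08 and -0.13 against PBS), while secondary granule genes centre at -1.01 in CpG-scrODN minus PBS.

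Progenitor and later granule genes were lower in part. Of 24 genes of granulocyte and monocyte progenitors, limma called 1 lower for CpG-STAT3dODN against PBS and 7 lower for CpG-scrODN against PBS. None was called higher, and the median differences were -0.36 and -0.56. Of all tested genes, 1.83% and 4.04% were called lower. Plac8 by -2.26 (limma adjusted p = 0.0118), Fcnb, a ficolin of granulocytic cells, by -1.58 (0.0402) and Clec12a by -1.18 (0.0263) were called for CpG-scrODN. Of 20 secondary granule genes, whose products are made after those of the primary granule, 1 was called for each label against PBS. That gene was Cybb, the large subunit of the phagocyte oxidase, by -1.10 for CpG-STAT3dODN (limma adjusted p = 0.0287) and -1.55 for CpG-scrODN (0.00177). All 20 had a negative difference between CpG-scrODN and PBS, with a median of -1.01. Of these, 14 reached an unadjusted p under 0.05, where 15.6% of all tested genes did. Levels of the 20 genes spread widely between libraries. Ltf, which encodes lactoferrin, averaged 83.1 ± 35.6 RPKM in libraries labelled CpG-STAT3dODN, 42.4 ± 27.2 RPKM in those labelled CpG-scrODN and 101 ± 47.1 RPKM in those labelled PBS (SD, n = 4 each) and was not called (limma adjusted p = 0.246 for CpG-scrODN against PBS).

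Of the genes beside the enzymes on the chromosome, 3 that are not granule enzymes themselves could be tested, and 1 of them, Mcpt8, was called. Ptbp1, which encodes a splicing factor 15232 bases from Prtn3, averaged 150.2 ± 11.2 RPKM in libraries labelled CpG-STAT3dODN, 149 ± 13.2 RPKM in those labelled CpG-scrODN and 155 ± 7.25 RPKM in those labelled PBS (SD, n = 4 each). Its difference from PBS was -0.05 (95% interval -0.23 to 0.13) and -0.06 (-0.24 to 0.12). Med16, a Mediator subunit gene 6490 bases from Elane, differed from PBS by -0.05 (95% interval -0.25 to 0.15) and -0.04 (-0.24 to 0.16). Cfd, the gene of complement factor D and a relative of the proteases 2637 bases from Elane, was at 0.0318 RPKM or less in every library. Beside Ctsg, Mcpt8, a basophil protease gene at a distance of 14386 bases, averaged 1.49 ± 0.981 RPKM in libraries labelled CpG-STAT3dODN, 0.513 ± 0.142 RPKM in those labelled CpG-scrODN and 4.96 ± 3.91 RPKM in those labelled PBS (SD, n = 4 each). It was called in CpG-scrODN against PBS, by -1.77 (limma adjusted p = 0.0202). Mcpt8 met the filter on low values only with the libraries labelled PBS, at 1.83 to 10.6 RPKM, so it was tested because of that group. The granzyme genes Gzme and Gzmd on the other side of Ctsg were listed at 0 in all 12 libraries.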

How the data were processed

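RNA-seq values of 12 libraries were used as the authors deposited them, in RPKM, per the file headers. The submitters' processing notes name TopHat 1.3.1, Partek 6.12.0713 and mm10, without their roles; annotation and filters are not given in the sources used. RPKM depends on the transcript length chosen, so levels of different genes are compared only per length. Depth was estimated from single-transcript genes, where 60.1% to 64.8% of low values were whole reads within 0.05 read. That was too few to recover counts, so no count test was run.

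Groups came from the sample labels. Genes at 1 RPKM or more in at least 4 of 12 libraries were kept, 10886 in all, including all 8 granule genes. One limma 3.58.1 model in R 4.3.3 with an intensity trend held the 3 labelled groups, on log2(RPKM + 1), which understates changes of low genes. Calls needed a two-sided Benjamini-Hochberg adjusted p under 0.05 over all tested genes within a comparison, and parenthesised p-values that follow such a p are of the same kind. Intervals carry no adjustment for multiple genes. Enzyme ratios were tested with exact permutations in scipy 1.17.1 and adjusted over 18 tests. The model was tested on simulated data.

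The granule genes and the gene lists were chosen with earlier results of these data known. Per list, up to 4 called genes with the largest difference in a comparison were named, or the 2 most abundant where none was called; Gfi1, Cebpa, Runx1, Cbfb, Ctsc, Ltf, Ms4a4b, Kit and Fos were named after their values were seen. Of the genes this rule gave, 1 is not reported here. Features were matched by symbol, and all 8 genes matched the RefSeq tables of GRCm38.p6. Alternatives covered pseudocount, filter, scaling, weights, replicate block and left-out libraries. Comparisons against PBS share the same 4 libraries.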

Additional observations from a re-analysis of the deposited data

Results flagged for a closer look

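Of 24 sets of 4 libraries, 8 genes in 3 labelled groups, 5 had 1 library far from the other 3 by Dixon's criterion, which chance alone meets in about 1 of 20 sets. The sets are not independent, since the enzymes and Ms4a3 moved together over the same libraries, so the count cannot be set against that rate. Mpo reached 84.0 RPKM (gap over range 0.839) and Ms4a3 20.5 RPKM (0.892) in replicate 3 labelled CpG-STAT3dODN, each the highest of its set. In replicate 4 labelled CpG-STAT3dODN, Igfbp4 was at 15.4 RPKM (0.847), the lowest of its set. Among libraries labelled PBS, Mpo was highest in replicate 2, at 119 RPKM (0.845), and Calr lowest in replicate 3, at 288 RPKM (0.839).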

How the results depend on the processing

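Directions of Mpo, Elane, Prtn3, Ctsg and Ms4a3 held in all 23 alternatives of each comparison. With library quality weights, 6 of the 8 genes were called in CpG-STAT3dODN against PBS, 6 in CpG-scrODN against PBS and 5 in CpG-STAT3dODN against CpG-scrODN. Leaving out single libraries gave 0 to 5, 5 to 5 and 0 to 0 calls. Over all genes, 202 were called in CpG-STAT3dODN against PBS, 76 with a floor of 5 RPKM, 1248 with quality weights, 78 with these 2 groups alone, 392 without replicate 4 of every group, 337 without both libraries of low Fos, and 121 to 218 without single libraries. In CpG-scrODN against PBS, 452 were called, 163 with the floor, 1812 with weights, 686 without both libraries of low Fos, and 279 to 560 without single libraries. In CpG-STAT3dODN against CpG-scrODN, 0 were called, 607 with weights, 1 with these 2 groups alone, and 0 to 0 without single libraries. Signs turned for small differences: Calr in CpG-STAT3dODN against PBS, -0.024 with quantile scaling, -0.012 with weights and -0.095 to 0.101 without single libraries; Igfbp4 in CpG-scrODN against PBS, -0.289 with weights, -0.336 without replicate 4 of every group, -0.353 without both libraries of low Fos and -0.353 to 0.159 without single libraries; Igfbp4 in CpG-STAT3dODN against CpG-scrODN, 0.249, 0.187, 0.204 and -0.277 to 0.204 in the same settings; Igfbp4 in CpG-STAT3dODN against PBS, -0.486 to 0.205 without single libraries; and Srgn in CpG-STAT3dODN against CpG-scrODN, -0.035 with quantile scaling, -0.06 with weights, -0.041 without both libraries of low Fos and -0.041 to 0.106 without single libraries. The cause was not tested. With a replicate block, 0, 5 and 0 of the 8 genes and 213, 523 and 0 genes in all were called. Same-numbered libraries deviated with correlations of -0.341 to 0.817, and 7 of 24 best matches had the same number. The highest value, 0.817, was that of replicate 4 labelled CpG-STAT3dODN with replicate 4 labelled PBS, both libraries of low Fos. These descriptions cannot decide whether same-numbered libraries were handled together, which was not tested. At the lowest depth, 1 RPKM is about 31.4 reads per kilobase, which limits statements on genes near that level.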

Other observations

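Relatives of these genes were measured in the same libraries. Of 8 tested Ms4a relatives, 4 were called lower in libraries labelled CpG-STAT3dODN than in those labelled PBS and 5 in those labelled CpG-scrODN. Of all tested genes, 1.83% and 4.04% were called lower in these comparisons, and 9.40% and 15.6% had an unadjusted p under 0.05. Of the 8 relatives, 2 and 3 had a positive difference, up to 0.56 and 0.94. Ms4a1, which encodes the B-cell antigen CD20, averaged 3.34 ± 0.832 RPKM in libraries labelled CpG-STAT3dODN, 1.52 ± 0.616 RPKM in those labelled CpG-scrODN and 35.7 ± 12 RPKM in those labelled PBS (SD, n = 4 each), differing from PBS by -3.04 (limma adjusted p = 0.000152) and -3.84 (1.27e-05). The others called were Ms4a4c, Ms4a6b and Ms4a6c for both labels, with Ms4a4c differing by -2.04 and -2.40, and Ms4a4b for CpG-scrODN, by -1.43 (limma adjusted p = 0.0171). Of 6 tested serine proteases related to the granule enzymes, none was called for CpG-STAT3dODN against PBS by limma, with 4 at an unadjusted p under 0.05, and 3 were called lower for CpG-scrODN: Mcpt8, Prss57 and Prss34, a basophil protease gene (-1.47, limma adjusted p = 0.0286). The summed level of 12 mast cell and basophil markers was 1377 to 3707 RPKM in libraries labelled CpG-STAT3dODN, 2385 to 4279.6 RPKM in those labelled CpG-scrODN and 1026 to 2642 RPKM in those labelled PBS. This sum is weighted to the most abundant of them. The markers were split in direction. Of 10 tested, 6 were higher and 4 lower for CpG-STAT3dODN against PBS, and 7 higher and 3 lower for CpG-scrODN, with medians of 0.30 and 0.35. The only calls were Mcpt8 and Prss34.

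Of 19 genes of the insulin-like growth factor axis to which Igfbp4 belongs, 4 passed the filter on low values and limma called none against PBS, with 1 at an unadjusted p under 0.05 for CpG-STAT3dODN and 2 for CpG-scrODN. Over all tested genes, 9.40% and 15.6% reached that p. Stc2, which encodes stanniocalcin-2, an inhibitor of the protease that cleaves IGFBP4, averaged 23.4 ± 7.63 RPKM in libraries labelled CpG-STAT3dODN, 22.5 ± 2.39 RPKM in those labelled CpG-scrODN and 12.8 ± 3.49 RPKM in those labelled PBS (SD, n = 4 each). Its groups did not overlap against PBS for either label, with differences of 0.81 (limma adjusted p = 0.104) and 0.80 (0.0635). Of 7 peroxidases and related haem enzymes listed beside Mpo, 2 passed the filter, Gpx1 and Ptgs1, and limma called neither in any comparison, with 0 at an unadjusted p under 0.05 for CpG-STAT3dODN and 1 for CpG-scrODN against PBS.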
